A study of Rhinolophus ferrumequinum with 8 samples.

Results

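Whole spleen of the greater horseshoe bat (Rhinolophus ferrumequinum) 2 h into arousal was compared with spleen of summer active bats, using 4 of the 8 RNA libraries of the study. The 2 arousal libraries came from wild females in November, sampled 2 h after capture out of hibernation, and the 2 summer active libraries from wild females in July. Each library is a biological replicate, named here by its state and replicate number, as in arousal 1. The other 4 libraries, also from November, hold 2 of torpor and 2 of the winter active state, 26 h after capture, and enter the fit to estimate the spread between bats. Season, hibernation and capture differ together between arousal and summer, so their parts cannot be told apart, and the labels give no age for the bats. Genes whose mean over the 8 libraries reached 1 were taken, which left 13542 of the 19652 genes in the table. No gene entered this set by its difference between the states, but many of the genes named below were chosen from it by that difference.

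Hibernating bats spend most of winter in torpor, with low body temperature and metabolism, and rewarm from time to time by burning fat, which is called arousal. The spleen filters blood, breaks down old red cells and returns their iron, and holds B cells, T cells and macrophages. In mice and several other mammals it also makes red cells in adult life, from dividing precursors that switch on globin, heme and membrane skeleton genes.

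Levels are the deposited values, a rescaled TPM (a level per transcript length), and differences are arousal minus summer active on the log2(value + 1) scale. That scale understates the change of low genes, and for values near 0 the added 1 sets much of the size. Adjusted p-values are from limma's moderated test over all 13542 genes with Benjamini-Hochberg correction, and a gene that rose, fell or changed has one under 0.05. Sequencing depth is unknown, since no read counts are in the table. Columns summed to 745098 and 780490 in arousal and to 1276851 and 1331820 in summer active libraries, and replicates correlated at r = 0.937 in arousal and 0.915 in summer over log2 values. TLX1, a transcription factor needed to form the spleen, was present at 28.3 and 33.0 in arousal and 35.4 and 15.4 in summer spleen. Genes of other organs stood out in some libraries. The 21 hepatocyte genes tested summed to 1587 and 24526 in arousal, against 3803 and 106 in summer, and the 8 squamous epithelium genes to 75.7 and 159, against 82.1 and 2294. Hepatocyte genes were thus highest in arousal 2, with summer active 1 and arousal 1 also above summer active 2, and squamous genes were highest in summer active 2. Of the 4 libraries, arousal 2 also held the most pancreatic and adipocyte transcripts, with sums of 1060 and 880. The results are given below also for fits without each library.

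Red cell genes made up the largest falls in arousal spleen, as AHSP at 0.633 and 1.10, against 2514 and 3548 in summer, and many genes of dividing cells and B cells fell too. Rises were smaller, and included regulators of nutrient signalling and fuel choice such as PDK4 and FNIP2 (differences 2.24 and 2.65). In all, 748 genes changed (5.52% of those tested), 323 higher (2.39%) and 425 lower (3.14%), while 3920 had an unadjusted p under 0.05. Among genes past the threshold, 37 were at least 4-fold higher and 153 at least 4-fold lower on the log2(value + 1) scale. Of the 425 lower genes, 41 had both arousal values under 1, and of the 323 higher genes, 15 had both summer values under 1. Such genes reached a mean of 1 only through the other libraries. The median difference of all genes was 0.083. Setting each column to a total of 1000000 moved that median to 0.77 and the calls to 5868 higher and 263 lower (95.7% higher, against 43.2% on the deposited scale). With genes over 10000 left out of that total the median was 0.35, with 925 higher and 310 lower (74.9% higher). Without arousal 1, arousal 2, summer active 1 or summer active 2 the count of changed genes was 43, 25, 677 and 43, and it was 305, 296, 190 and 190 without torpor 1, torpor 2, winter active 1 or winter active 2. In a fit of the 4 libraries alone, 27 genes fell and 0 rose, with 1679 higher at an unadjusted p under 0.05. The genes called in every one of the 8 fits without a library numbered 24, all lower in arousal. Among them were AHSP, HBZ, HBQ1, SLC4A1, EPB42, SPTB, HEMGN, TMCC2, YPEL4, NME4 and VPREB3.

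**Figure D1:**
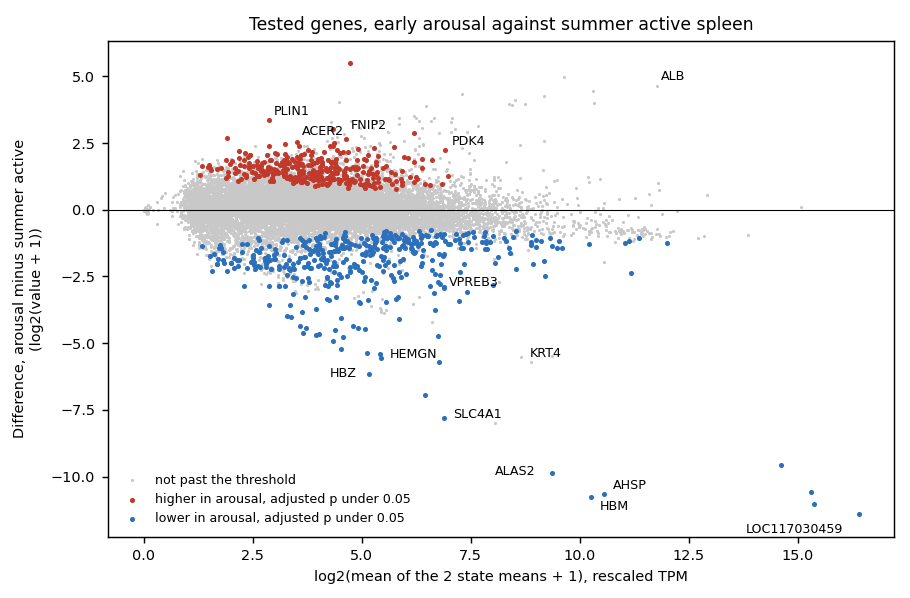
Difference between arousal and summer active spleen (y axis, log2(value + 1)) against the level of each of the 13542 genes tested (x axis, log2 of the mean of both states + 1, rescaled TPM). Red points are the 323 genes higher in arousal and blue points the 425 lower, and the blue points at the lower right are red cell genes and loci with no symbol, while ALB and KRT4 lie far from 0 without passing the threshold.

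The hemoglobin genes HBM, HBZ and HBQ1 and the partner AHSP were at or near 0 in arousal spleen, against 22.1 to 3548 in summer spleen. HBM, an alpha-like globin (NCBI gene 117019390), was listed at 0 and 0.829 in arousal, against 1765 and 3151 in summer. Its difference was -10.77 (SE 1.15, adjusted p = 0.00852). AHSP, which keeps free alpha-globin soluble, differed by -10.66 (SE 0.62, adjusted p = 0.00129). HBZ, the zeta-globin known from embryonic red cells of other mammals, was at 0 in each arousal library, against 72.8 and 68.0 in summer (adjusted p = 6.96e-04). HBQ1, the theta-globin, was likewise listed at 0 in arousal 1 and 2, against 22.1 and 24.6 in summer (adjusted p = 0.00139). No arousal value of these 4 genes came near the summer range. Reads can be split among the near-identical copies of globin genes, which makes single values uncertain. In bulk tissue, fewer cells of a type and less RNA per cell cannot be told apart.

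The genes with the highest summer levels carry only locus numbers. The loci LOC117019384 and LOC117019380 lie between HBM and HBQ1 in assembly mRhiFer1_v1.p, and LOC117030459 and LOC117030460 are neighbours of each other elsewhere. Whether these loci are globin genes was not tested. LOC117030459 stood at 18.1 and 210 in arousal, against 157267 and 187703 in summer. LOC117019384 stood at 11.9 and 213 in arousal, against 84149 and 77165 in summer. Together these 4 loci took 0.00725% and 0.109% of the arousal columns, against 29.9% and 29.5% of the summer columns. Of the arousal libraries, arousal 2 held more of each of the 4. All 4 fell (differences -11.40 to -9.57, adjusted p = 0.021 to 0.0394), as did 40 other genes with only a locus number, while 12 rose. All 4 lost the call without arousal 1, arousal 2 or summer active 2, 3 lost it without summer active 1 (LOC117030459 kept it) and the 2 beside HBM without either torpor library (adjusted p = 0.0522 to 0.151). LOC117022872 rose most of those 12, at 27.0 and 75.8 in arousal, against 6.17e-07 and 0.0597 in summer (5.49, adjusted p = 0.00877), and lost the call without arousal 2 or summer active 2 (adjusted p = 0.0558 and 0.0663). These loci were chosen after their values were seen.

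Genes of the red cell membrane and of red cell formation fell with them. SLC4A1, the anion exchanger known as band 3, stood at 0.0186 and 0.0303 in arousal, against 174 and 296 in summer, a difference of -7.80 (SE 0.44, adjusted p = 0.00129). EPB42, the protein 4.2 of the membrane skeleton, stood at 0.232 and 0.280, against 28.3 and 48.3 in summer (-4.92, adjusted p = 0.00161). HEMGN, a nuclear regulator of red cell development, stood at 0.806 and 0.544, against 51.0 and 116 in summer (-5.55, adjusted p = 0.00184). TSPO2, a membrane protein of maturing red cells, was listed at 0 in both arousal libraries and at 11.6 and 49.7 in summer (adjusted p = 0.0175). All 4 were near 0 in both arousal libraries, and summer active 2 was above summer active 1 in each. NME4, a mitochondrial nucleoside diphosphate kinase, TMCC2 and YPEL4 differed by -4.76, -4.71 and -4.69 (adjusted p = 0.00131, 0.00161 and 0.00129). NRN1L stood at 3.48 and 2.66 in arousal, against 172 and 253 in summer (-5.70, adjusted p = 0.00399).

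Of the 32 erythroid markers tested, 27 fell (84.4%, against 3.14% of all genes), with a median difference of -3.65. The 5 that did not pass were BLVRB, EPOR, ICAM4, NFE2 and XK, and all 32 means were lower in arousal. The gene lists were chosen with earlier results of these data known, so such shares are a description. Among the 27 were the regulators GATA1 (2.89 and 1.81 in arousal, against 27.7 and 40.0 in summer) and KLF1 (0.686 and 1.39, against 16.5 and 39.1), and the skeleton gene SPTB, with a difference of -3.58. These 3 genes were chosen after their values were seen. The list summed to 558 and 385 in arousal, against 7687 and 11186 in summer. The number that fell was 11 without either arousal library, 14 without summer active 2 and 22 to 26 without any other library. Of the 12 largest falls, HBM and ALAS2 lost the call without arousal 1, arousal 2 or summer active 2, TSPO2 without either arousal library and NRN1L without arousal 2 (adjusted p = 0.0511 to 0.0864).

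**Figure D2:**
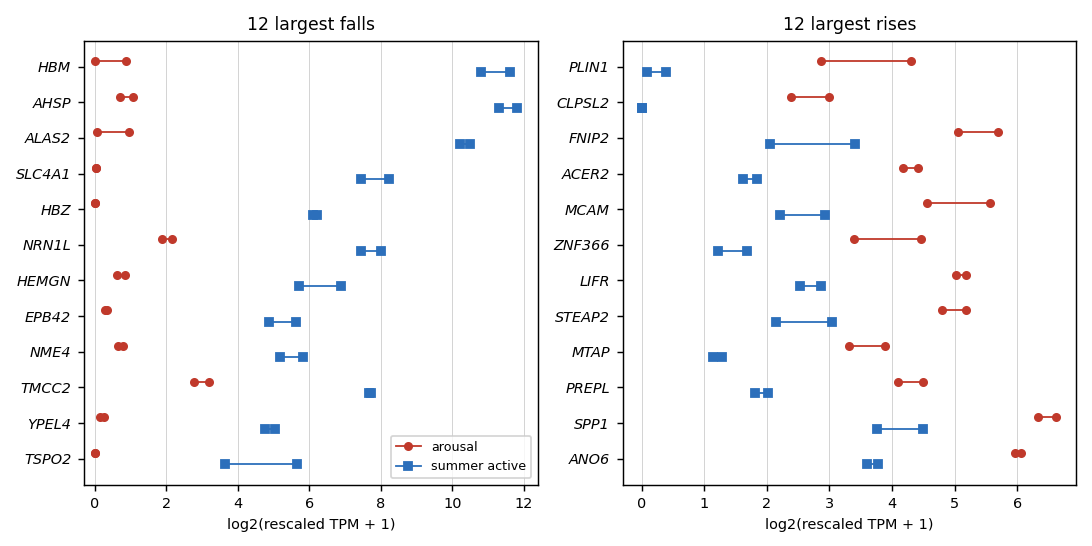
Values of the 12 largest falls (left panel) and the 12 largest rises (right panel) by library, on log2(rescaled TPM + 1). Red circles are arousal libraries and blue squares summer active libraries, with a line joining the 2 libraries of a state, and the states do not overlap in any of the 24 genes, as the rule that chose them required.

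Most enzyme genes of heme synthesis fell. ALAS2, the red cell form of its first enzyme, stood at 0.0419 and 0.941 in arousal, against 1185 and 1450 in summer, a difference of -9.85 (SE 1.17, adjusted p = 0.0105). ALAS1, the form that other cells use, stood at 32.7 and 44.5, against 53.6 and 46.9, and did not pass (-0.39, adjusted p = 0.39). UROS, which acts later in the pathway, stood at 16.6 and 13.1, against 52.7 and 83.3 in summer (-2.09, adjusted p = 0.0124). PPOX, a late enzyme in the mitochondrion, stood at 19.7 and 19.5, against 74.8 and 97.4 in summer (-2.07, adjusted p = 0.0132). In all, 7 of 9 heme enzymes fell (77.8%, against 3.14% of all genes), with a median of -2.04, and ALAS1 and ALAD did not pass. ALAS1 and ALAD were named after their values were seen. The number that fell was 1 without either arousal library, 7 without summer active 1, 2 without summer active 2 and 5 without any torpor or winter active library.

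Iron handling gave 1 call, TFRC, among 16 genes for iron recycling and storage (6.25%, against 5.52% of all genes called, median 0.26). TFRC, the receptor that takes up iron-loaded transferrin and is high in red cell precursors, stood at 16 and 18.9 in arousal, against 43.7 and 112 in summer (-1.95, adjusted p = 0.0442). Without summer active 2 the list median was -0.22. Of 27 antioxidant enzymes, PRDX2, GPX1, NQO1 and SELENOW fell and TXNRD1 rose (18.5% called, against 5.52% of all genes). The list's median was -0.24, and it turned to 0.53 with columns set to 1000000, to 0.05 with genes over 10000 left out of that total and to 0.03 without arousal 1. PRDX2, a peroxidase abundant in red cells, stood at 57.1 and 62.7, against 305 and 595 in summer (-2.81, adjusted p = 0.00903). GPX1, a glutathione peroxidase, stood at 617 and 906, against 3624 and 4064 in summer (-2.36, adjusted p = 0.0132). BNIP3L, which clears mitochondria from maturing red cells, stood at 47.3 and 63.6, against 154 and 204 in summer (-1.67, adjusted p = 0.0158). In each of these genes the arousal values lay below both summer values, as the erythroid sum did, and as in every gene called lower. The part of the erythroid shift in them was not tested. Of UROS, PPOX, TFRC, PRDX2, GPX1 and BNIP3L, all lost it without arousal 1 or arousal 2, all but PRDX2 without summer active 2, and TFRC without any torpor or winter active library (adjusted p = 0.0565 to 0.166).

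Many genes of dividing cells fell in arousal spleen. Of 32 mitosis genes, 23 fell (71.9%, against 3.14% of all genes), all 32 means were lower, and the median was -2.0. BIRC5, known as survivin, which serves chromosome segregation, stood at 26.6 and 24.8 in arousal, against 151 and 265 in summer (-2.91, SE 0.29, adjusted p = 0.00624). CDK1, the kinase that starts mitosis, stood at 9.01 and 8.08, against 37.9 and 88.8 in summer (-2.63, adjusted p = 0.0185). The spindle protein gene DLGAP5 and the centromere histone CENPA differed by -2.75 and -2.65 (adjusted p = 0.0132 and 0.0209). In each of these genes summer active 2 was above summer active 1. Both lay above both arousal libraries, and in none of the 748 genes called did the 2 states overlap. The summed level of the list was 210 and 141 in arousal, against 698 and 1227 in summer. Torpor and winter active spleen were lower than summer too, with list medians of -1.41 and -2.02.

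Of 33 S phase genes, 11 fell (33.3%, against 3.14% of all genes), with a median of -1.04. Their median against summer was -0.76 in torpor and -0.96 in the winter active state. RRM2, which makes DNA building blocks, stood at 13.4 and 5.83 in arousal, against 64.6 and 140 in summer (-3.28, adjusted p = 0.0163). TYMS, another enzyme of nucleotide supply, stood at 10.3 and 6.34, against 34.0 and 105 (-2.74, adjusted p = 0.0339). E2F1, an activator of replication genes, and UHRF1, which helps copy DNA methylation, differed by -2.19 and -2.12 (adjusted p = 0.0343 and 0.0466). MCM3 and MCM5, of the replicative helicase, differed by -1.42 and -1.47 (adjusted p = 0.0467 and 0.0486). The sliding clamp PCNA did not pass, at 137 and 120 in arousal, against 158 and 295 in summer (-0.75, adjusted p = 0.145). MCM3, MCM5 and PCNA were chosen after their values were seen. EZH2, a histone methyltransferase of dividing cells, fell by 1.5 (adjusted p = 0.0428) and the chromatin protein gene HMGB2 by 2.21 (adjusted p = 0.0375).

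H1-4, a linker histone, rose, at 7.87 and 6.58 in arousal, against 1.86 and 1.08 in summer (1.75, adjusted p = 0.0454), and its near-identical copies make the value uncertain. Mitosis genes that fell numbered 1 without arousal 1, 0 without arousal 2, 25 without summer active 1, 2 without summer active 2 and 11 to 14 without any other library. S phase genes that fell numbered 16 without summer active 1 and at most 1 without any other library. The erythroid markers moved with these lists, and their part in them was not tested. Of the 11 genes from BIRC5 to H1-4 that passed, MCM3 and MCM5 left out, 10 lost the call without arousal 1, 11 without arousal 2, 1 without summer active 1, 9 without summer active 2 and 5 or 6 without a torpor or winter active library (adjusted p = 0.0513 to 0.174).

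B cell genes had lower means in arousal in 22 of 23 cases, and 7 fell (30.4%, against 3.14% of all genes). VPREB3, which is made in developing B cells, stood at 31.6 and 23.5 in arousal, against 196 and 188 in summer (-2.77, SE 0.20, adjusted p = 0.00171). CD79B and CD79A, the signalling chains of the receptor, differed by -2.48 and -1.91 (adjusted p = 0.0105 and 0.0268), with CD79B at 182 and 173 in arousal, against 1074 and 916 in summer. FCRLA, an Fc receptor-like protein of B cells, stood at 5.72 and 3.29, against 25.8 and 34.5 in summer (-2.52, adjusted p = 0.0158). The B cell list had a median of -1.22, and the others that fell were CD37, CD72 and SPIB. Its median against summer was -1.46 in torpor and -0.73 in the winter active state. MS4A1, the B cell surface protein CD20, stood at 192 and 127 in arousal, against 187 and 416 in summer, so the states overlapped (-0.83, adjusted p = 0.251). MS4A1, CD37 and CD72 were named after their values were seen.

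Of 23 T cell genes 20 had lower means in arousal and 4.35% fell, and of 21 NK and cytotoxic genes 19 had lower means and 9.52% fell, against 3.14% of all genes. CD5, a receptor of T cells and some B cells, stood at 10.7 and 7.19 in arousal, against 24.9 and 32.1 in summer (-1.58, adjusted p = 0.0343), and it was the single call of the T cell markers (median -0.80). GZMK, a granule protease, stood at 6.76 and 7.78, against 31.5 and 82.9 in summer (-2.66, adjusted p = 0.0339). CCL5, a chemokine of activated T and NK cells, stood at 45.3 and 18.9, against 229 and 112 in summer (-2.41, adjusted p = 0.0438). These were the 2 calls among 21 NK and cytotoxic genes (median -0.76). DERL3, of the secretory pathway in plasma cells, fell by 0.98 (adjusted p = 0.0442), while the median of 14 plasma cell genes was -0.04 and turned positive without summer active 2 (0.27), under quantile normalization (0.09) and with columns set to 1000000 (0.72). The platelet receptor gene GP1BB fell by 1.92 (adjusted p = 0.0438).

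Of 13 dendritic cell genes, 5 means were higher and 8 lower in arousal, and 1 gene rose and 1 fell (15.4% called, against 5.52% of all genes). The median was -0.19 and turned to 0.43 with columns set to 1000000. SPIB, shared with B cells, fell by 1.29 (adjusted p = 0.0352). TCF4, a regulator of plasmacytoid dendritic cells, rose by 1.13 and stood at 40.9 and 29.2 in arousal, against 14.6 and 15.8 in summer (adjusted p = 0.0468). VPREB3 kept its call without any single library. The other 10 of these 11 genes lost it without arousal 1, arousal 2 or summer active 2, 5 did so without summer active 1 and 8 without a torpor or winter active library (adjusted p = 0.0507 to 0.184). The count of B cell markers that fell was then 1 without either arousal library or summer active 2, 6 without summer active 1 and 3 without any other library. With columns set to 1000000, SPIB and DERL3 lost the call (adjusted p = 0.114 and 0.425).

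No member of the macrophage, endothelial or neutrophil lists passed. The 23 macrophage markers had a median of 0.59, which was 1.25 without summer active 1 and turned to -0.03 without summer active 2. Of these, 4 had an unadjusted p under 0.05 by limma, against 3920 of all 13542 genes. VCAM1, an adhesion molecule of splenic macrophages, stood at 1825 and 1425 in arousal, against 915 and 521 in summer (1.22, adjusted p = 0.0623). MERTK, a receptor for dying cells, stood at 14.1 and 13.8, against 7.24 and 6.23 in summer (0.95, adjusted p = 0.0691). Both genes were higher in both arousal libraries than in either summer library without passing the threshold. The 22 endothelial and sinus markers had a median of 0.24, with EMCN and NOSTRIN at 0.83 and -0.86 (adjusted p = 0.0859 and 0.098). Their median was 0.83 without summer active 1 and turned to -0.33 without summer active 2. The endothelial list had 6 members at an unadjusted p under 0.05 by limma. The 15 neutrophil markers had none at that level and a median of 0.24, with BPI and LTF at 1.32 and 1.19 (adjusted p = 0.277 and 0.483), and -0.27 without summer active 2.

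**Figure D3:**
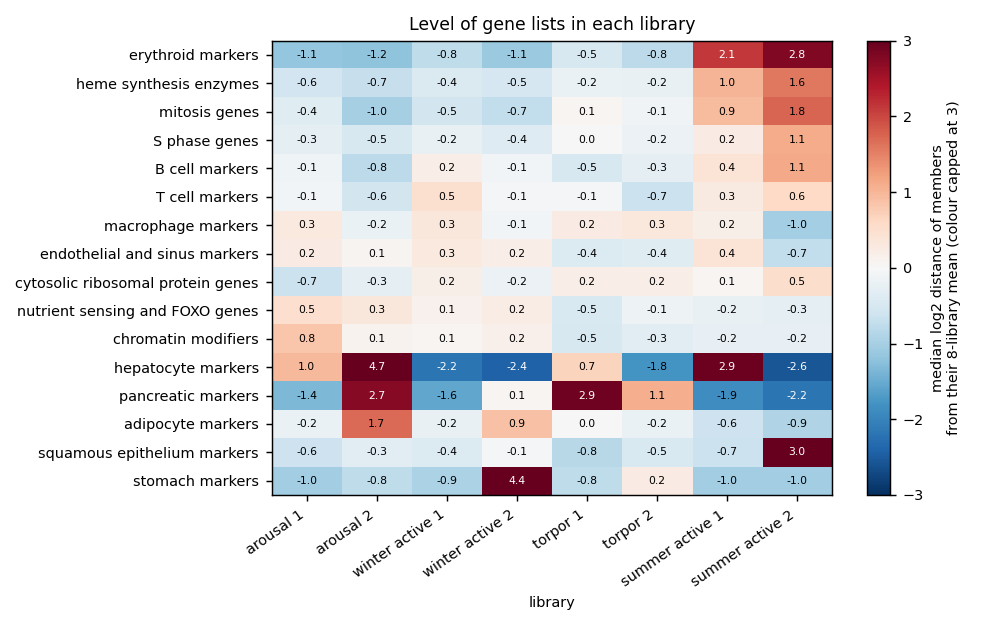
Level of 16 gene lists in each library, as the median log2 distance of the members from their own mean over the 8 libraries (colour and printed number). Erythroid, heme and mitosis lists lie low in both arousal libraries and high in both summer active libraries, while the hepatocyte list reaches 4.7 in arousal 2 and 2.9 in summer active 1 and the squamous epithelium list 3.0 in summer active 2.

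The largest rises in arousal spleen were genes of varied function and of low to middle level. PLIN1, which coats the fat droplets of adipocytes, stood at 6.28 and 18.8 in arousal, against 0.308 and 0.0584 in summer (3.35, SE 0.71, adjusted p = 0.0442). The 14 adipocyte markers summed to 263 and 880 in arousal, against 212 and 105 in summer, with ADIPOQ at 8.61 and 75.4, against 1.04 and 0.327, and their part in the rise of PLIN1 was not tested. CLPSL2, a relative of the pancreatic cofactor colipase, stood at 4.23 and 6.93 in arousal, with a value of 0 in summer active 1 and 2 (adjusted p = 0.0158). ADIPOQ, the adipocyte hormone adiponectin, was chosen after its values were seen.

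FNIP2, a partner of folliculin in nutrient sensing, stood at 50.9 and 32.2 in arousal, against 9.56 and 3.15 in summer (2.65, SE 0.46, adjusted p = 0.0321). ACER2, a Golgi enzyme that turns ceramide into sphingosine, stood at 17.0 and 20.3, against 2.60 and 2.06 in summer (2.56, SE 0.25, adjusted p = 0.00604). Both genes were at least 3-fold higher in each arousal library than in either summer library. MCAM, an adhesion molecule of vessel cells, ZNF366, a nuclear regulator known from dendritic cells, and the cytokine receptor gene LIFR differed by 2.49, 2.47 and 2.40 (adjusted p = 0.0442, 0.0265 and 0.0483). The metalloreductase gene STEAP2 stood at 35.3 and 26.8 in arousal, against 7.20 and 3.41 in summer (2.40, adjusted p = 0.0163).

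MTAP, an enzyme of methionine salvage, stood at 13.8 and 8.99, against 1.43 and 1.22 in summer (2.39, adjusted p = 0.0128). PREPL, a serine hydrolase, differed by 2.38 (adjusted p = 0.0239). SPP1, the secreted protein osteopontin, stood at 79.7 and 96.9, against 12.6 and 21.6 in summer (2.34, adjusted p = 0.026). ANO6, which moves phospholipids across the cell membrane, stood at 65.9 and 61.2, against 12.7 and 11.2 in summer (2.32, adjusted p = 0.0204), with little spread within either state. The calls of these 12 rises depended on single libraries. The call was lost by 11 without arousal 1, 12 without arousal 2, 5 without summer active 1, 12 without summer active 2 and 3 to 5 without a torpor or winter active library (adjusted p = 0.0507 to 0.175).

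Several genes that tune nutrient signalling rose. Of 30 nutrient sensing and FOXO genes, 5 rose (16.7%, against 2.39% of all genes), namely FNIP2, RICTOR, CREBRF, INSR and DEPTOR, with a list median of 0.62. This list, like the others, was chosen with earlier results of these data known, so its share is a description. RICTOR, a core subunit of the kinase complex mTORC2, stood at 9.15 and 8.21 in arousal, against 1.51 and 2.86 in summer (1.63, adjusted p = 0.0442). INSR, the insulin receptor, stood at 5.21 and 5.75, against 1.98 and 1.86 in summer (1.15, adjusted p = 0.0486). CREBRF, a regulator of CREB3 transcription factors, stood at 16.1 and 16.9, against 7.07 and 6.68 in summer (1.15, adjusted p = 0.0438). DEPTOR, an inhibitor of mTOR, stood at 17.4 and 13.4, against 6.84 and 7.17 in summer (1.02, adjusted p = 0.0486), and was named after its values were seen. FOXO3, a factor active when insulin signalling is low, was also higher in both arousal libraries, at 19.3 and 21.7, against 5.49 and 8.08, and did not pass (1.48, adjusted p = 0.0506). FOXO3 was chosen after its values were seen.

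Among fuel genes PDK4 and PFKFB3 rose. They made up 3.7% of the fat oxidation and PDK list and 5% of the glycolysis list, against 2.39% of all genes. PDK4, which blocks entry of pyruvate into the citric acid cycle and so spares glucose, stood at 239 and 157 in arousal, against 32.5 and 49.7 in summer (2.24, SE 0.29, adjusted p = 0.0136). It was the single call of 27 fat oxidation and PDK genes (median 0.38) and of 19 glucocorticoid-induced genes (5.26%, against 2.39% of all genes higher). The glucocorticoid median was 0.03, -0.02 after median-of-ratios rescaling and -0.20 without arousal 2. PFKFB3, which speeds glycolysis, stood at 65.1 and 38.6, against 15.2 and 10.5 in summer (1.91, adjusted p = 0.0255). It was the single call of 20 glycolysis genes, whose median was -0.08 but turned positive without arousal 2 (0.04), under quantile normalization (0.13) and with columns set to 1000000 (0.69). Among 31 hypoxia targets (median 0.37) PFKFB3, the fucosyltransferase gene FUT11 and the collagen hydroxylase gene P4HA1 rose and BNIP3L fell. They were 12.9% of that list, against 5.52% of all genes called. FUT11 stood at 25.3 and 22.0 in arousal, against 5.70 and 6.40 in summer (1.80, adjusted p = 0.0101), and P4HA1 differed by 0.93 (adjusted p = 0.0442).

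HYCC2, a subunit of a lipid kinase complex of the cell membrane, stood at 10.5 and 11.5 in arousal, against 2.47 and 2.08 in summer (1.87, adjusted p = 0.0126). HIPK3, a nuclear protein kinase, stood at 59.6 and 67.2, against 28.2 and 27.0 in summer (1.17, adjusted p = 0.0378). Among the 9 genes RICTOR, CREBRF, INSR, PDK4, PFKFB3, FUT11, P4HA1, HYCC2 and HIPK3, all lost the call without arousal 1 or arousal 2. All but PDK4 lost it without summer active 2, 5 without summer active 1 and 5 or 6 without a torpor or winter active library (adjusted p = 0.0535 to 0.166). Of the nutrient list, 1 member rose without summer active 1 or torpor 1 and none without any other library.

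The immediate early, unfolded protein, heat shock, integrated stress response, clock, cold response and BCL2 family lists held between 1 and 4 calls each. DUSP5, a phosphatase that shuts off ERK, stood at 141 and 59.0 in arousal, against 24.7 and 20.2 in summer (1.98, adjusted p = 0.0394). JUN, a transcription factor of the early response, stood at 48.6 and 29.0, against 14.2 and 10.7 in summer (1.53, adjusted p = 0.0394). They were the 2 calls of 31 immediate early genes (6.45% higher, against 2.39% of all genes, median 0.32). FOS, at 5.37 and 3.38 against 1.36 and 2.10, did not pass (0.97, adjusted p = 0.123). FOS was chosen after its values were seen. SEL1L, which helps clear misfolded proteins from the endoplasmic reticulum, stood at 37.2 and 32.3, against 5.72 and 7.28 in summer (2.26, adjusted p = 0.0227). It was the single call of 24 unfolded protein response genes (4.17%, against 2.39% of all genes higher, median 0.46). Among 28 heat shock chaperones (median 0.32) DNAJB4 rose by 1.12 and DNAJB2 fell by 1.5 (adjusted p = 0.0425 and 0.0175). These were 7.14% of that list, against 5.52% of all genes called.

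EIF2AK2, the kinase PKR that senses double-stranded RNA, stood at 7.46 and 7.34 in arousal, against 1.29 and 0.952 in summer (1.99, adjusted p = 0.0158). It rose and the serine synthesis enzyme gene PHGDH fell (by 1.13, adjusted p = 0.0476) among 27 integrated stress response genes (7.41% called, against 5.52% of all genes). That list's median was -0.11, and it turned positive without summer active 2 (0.07), with columns set to 1000000 (0.56) and with genes over 10000 left out of that total (0.10). TXNRD1, a thioredoxin reductase, rose by 1.11 and the quinone reductase gene NQO1 fell by 1.75 (adjusted p = 0.0486 and 0.0332), and both are known targets of the factor NRF2. NR1D1, a repressor in the circadian clock, stood at 11.8 and 21.9, against 51.4 and 56.8 in summer (-1.68, adjusted p = 0.0331). It was the single call of 22 clock genes (4.55%, against 3.14% of all genes lower). Their median was 0.11 and -0.02 under quantile normalization, and the labels give no hour of sampling.

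HNRNPDL, an RNA-binding protein, stood at 97.1 and 143 in arousal, against 334 and 324 in summer (-1.47, adjusted p = 0.0356). It was the single call of 20 cold response genes (5%, against 3.14% of all genes lower). The cold response median was -0.23 and turned positive with columns set to 1000000 (0.54) and with genes over 10000 left out of that total (0.06). In the BCL2 family of cell survival and death genes, 4 of 18 fell (22.2%, against 3.14% of all genes), with a median of -0.49 that turned to 0.26 with columns set to 1000000. They were BNIP3L, BIK and BAD, which promote death, and BCL2L1, which opposes it and stood at 45.1 and 42.3, against 118 and 94.7 in summer (-1.26, adjusted p = 0.0244). BIK and BAD differed by -1.68 and -1.58 (adjusted p = 0.0418 and 0.025). Of the 14 genes past the threshold from DUSP5 to BCL2L1, BNIP3L left out, 14 lost the call without arousal 1, 13 without arousal 2, 8 without summer active 1, 14 without summer active 2 and 9 to 11 without a torpor or winter active library (adjusted p = 0.0516 to 0.19). PHGDH and BCL2L1 also lost it with columns set to 1000000 (adjusted p = 0.213 and 0.0933).

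Interferon-stimulated genes held calls in both directions. RSAD2, the antiviral enzyme viperin, stood at 1.79 and 1.22 in arousal, against 29.1 and 56.2 in summer (-4.06, SE 0.61, adjusted p = 0.0225). ISG20, an antiviral exonuclease, stood at 29.7 and 21.8, against 132 and 287 in summer (-2.89, adjusted p = 0.0257). IFIT2, an RNA-binding protein induced by interferon, was higher, at 30.2 and 25.3 in arousal, against 5.89 and 4.96 in summer (2.16, adjusted p = 0.0404). EIF2AK2 rose too, as did PARP14, at 38.9 and 28.7, against 16.5 and 11.3 in summer (1.23, adjusted p = 0.0499), which was named after its values were seen. Of the 40 genes of this list 3 rose and 2 fell, 12.5% in all, against 5.52% of all genes (2.39% higher and 3.14% lower), and the median was 0.24. MX1, an antiviral GTPase, stood at 97.0 and 76.6 in arousal, against 125 and 56.4 in summer, so the states overlapped (0.04, adjusted p = 0.969). MX1 was chosen after its values were seen. IFIT genes have near-identical relatives that can share reads.

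STING1, an adaptor that signals foreign or stray DNA in the cytosol, stood at 28.7 and 19.1 in arousal, against 6.92 and 8.38 in summer (1.5, adjusted p = 0.0275). It was the single call of 26 pattern recognition receptors (3.85%, against 2.39% of all genes higher, median 0.53). PSMB9, a subunit of the immunoproteasome that cuts peptides for display, stood at 138 in both arousal libraries, against 266 and 371 in summer (-1.18, adjusted p = 0.0474). It was the single call of 22 antigen presentation genes (4.55%, against 3.14% of all genes lower). Their median was -0.36 and turned to 0.41 with columns set to 1000000. The 23 NF-kB feedback and inflammatory genes had no call (median 0.40). At an unadjusted p under 0.05 by limma there were 3, against 3920 of all 13542 genes. NFKBIZ stood at 138 and 97.5 in arousal, against 55.5 and 24.2 in summer (1.63, adjusted p = 0.051). IL6 stood at 10.8 and 4.57, against 1.93 and 1.72 in summer (1.52, adjusted p = 0.0854). RSAD2, ISG20, IFIT2, STING1 and PSMB9 all lost the call without arousal 1, arousal 2 or summer active 2, while 2 did without summer active 1 and 3 without a torpor or winter active library (adjusted p = 0.05 to 0.163). PSMB9 lost it with columns set to 1000000 (adjusted p = 0.168).

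Most ribosomal protein genes had lower means in arousal, but few passed the threshold. Of 76 cytosolic ribosomal protein genes, 72 had a lower mean in arousal and 3 fell (3.95%, against 3.14% of all genes), FAU and RPL3 among them. At an unadjusted p under 0.05 by limma there were 58, against 3920 of all 13542 genes. The median was -0.79, and it was -0.12 under quantile normalization and -0.01 with columns set to 1000000. The summed level was 83812 and 106227 in arousal, against 145202 and 200593 in summer. FAU, which encodes a ubiquitin-like protein fused to a ribosomal protein, stood at 1140 and 1356 in arousal, against 2536 and 3407 in summer (-1.24, adjusted p = 0.0441). RPL3, of the large subunit, stood at 55.1 and 54.2, against 98.6 and 115 in summer (-0.95, adjusted p = 0.0476). Many near-identical copies of these genes exist, among which reads can be split. EIF1, which helps choose the start codon, fell by 0.94 (adjusted p = 0.0441). It was the single call of 34 initiation factors (2.94%, against 3.14% of all genes lower). Their median was -0.10 and turned to 0.02 under quantile normalization. It turned to 0.20 with genes over 10000 left out of the total and to 0.67 with columns set to 1000000.

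The mitochondrial ribosome and respiratory chain lists had 3.39% and 4% of their members called, all lower in arousal, near the 3.14% of all genes called lower. MRPS2 and MRPL12, of the mitochondrial ribosome, differed by -1.39 and -1.01 (adjusted p = 0.0244 and 0.0486), with a median of -0.32 over 59 such genes. NDUFA13 and NDUFA2, of respiratory complex I, differed by -1.23 and -0.85 (adjusted p = 0.0391 and 0.0375), with a median of -0.38 over 50 nuclear-encoded respiratory chain genes. With columns set to 1000000 these medians turned to 0.44 and 0.38. Chromatin modifier genes leaned the other way, with 35 of 39 means higher in arousal and a median of 0.64, yet CHD9 alone rose and EZH2 alone fell. CHD9, a chromatin remodeller, stood at 16.4 and 10.6 in arousal, against 4.55 and 5.38 in summer (1.26, adjusted p = 0.0442). Their median was 0.29 without arousal 1 and 1.02 without arousal 2, and the list summed to 905 and 540.0 in arousal, against 481 and 515 in summer. The 8 genes FAU, RPL3, EIF1, MRPS2, MRPL12, NDUFA13, NDUFA2 and CHD9 all lost the call without arousal 1, arousal 2 or summer active 2, and 6 or 7 did without any other library (adjusted p = 0.0534 to 0.184). With columns set to 1000000, MRPS2 and CHD9 kept it and the other 6 lost it (adjusted p = 0.115 to 0.715).

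**Figure D4:**
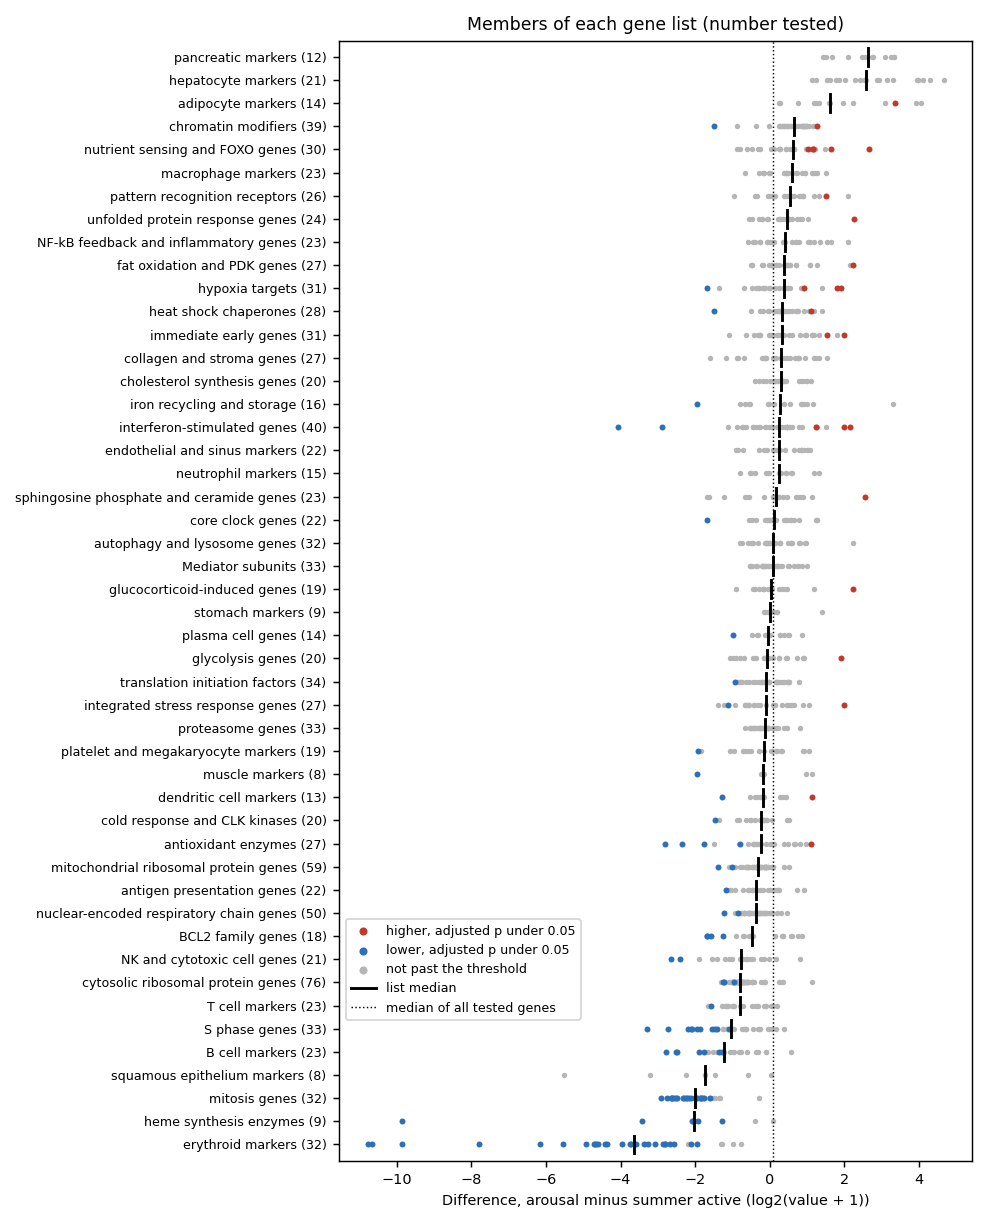
Difference between arousal and summer active spleen for the members of 48 gene lists (x axis, log2(value + 1), 1 point a gene, with the number tested beside each name). Red and blue points passed the threshold, black bars are list medians and the dotted line is the median of all genes (0.083). Erythroid, heme and mitosis lists lie to the left with most members called, while pancreatic, hepatocyte and adipocyte lists lie to the right with 1 call. With columns set to 1000000, medians between -0.49 and -0.04 turn positive.

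Transcripts of other organs differed widely between libraries of the same state and did not pass, PLIN1 and the troponin gene TNNT1 apart. At an unadjusted p under 0.05 by limma there were 0 hepatocyte, 3 pancreatic, 7 adipocyte, 0 squamous and 0 stomach genes. Of all 13542 genes, 3920 were at that level. ALB, the blood protein albumin made by hepatocytes, stood at 603 and 12262 in arousal, against 1077 and 9.78 in summer (4.66, SE 2.28, adjusted p = 0.222), and FGB, a fibrinogen chain, differed by 4.12 (adjusted p = 0.254). All 21 hepatocyte genes had a higher mean in arousal, with a median of 2.58, which was 5.49 without summer active 1 and 0.27 without summer active 2. The 12 pancreatic genes summed to 51.3 and 1060 in arousal, against 26.4 and 23.2 in summer, with a median of 2.64 that was 0.56 without arousal 2 and 4.79 without arousal 1. SYCN and CTRC, of pancreatic secretion, differed by 3.33 and 3.24 (adjusted p = 0.157 and 0.148).

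KRT4, a keratin of squamous epithelium, was listed at 0 and 0.0249 in arousal, against 0.318 and 1617 in summer (-5.51, adjusted p = 0.223), and LYPD3 differed by -1.73 (adjusted p = 0.207). The squamous list had 2 of 8 genes at 0 in each arousal library, against 2 and 0 in summer, and its median of -1.74 turned to 0.18 without summer active 2. Adipocyte markers had a median of 1.6, which was 0.88 without arousal 2 and 2.65 without arousal 1. Of the 9 stomach genes, 5 were at 0 in each arousal library and 6 and 4 in summer. The part of these transcripts in the other results was not tested.

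Between arousal and the other November states no gene passed the adjusted threshold. Arousal against torpor gave 0 calls (2666 genes at an unadjusted p under 0.05) and winter active against arousal 0 calls (738 at an unadjusted p under 0.05), and both comparisons share the arousal libraries. Of the named genes, 5 were taken for the smallest p against torpor, so their values are a description. ACER2 stood at 4.13 and 3.07 in torpor, 17.0 and 20.3 in arousal and 9.64 and 8.15 in the winter active state, with arousal 2.10 above torpor and the winter active state 0.99 below arousal. HIPK3 stood at 13.3 and 15.4 in torpor, 59.6 and 67.2 in arousal and 40.7 and 58.9 in the winter active state, with arousal 2.07 above torpor. In HIPK3 and CREBRF the torpor values lay below both summer values, and the arousal values above them.

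FUT11, HYCC2 and CREBRF were 1.56, 1.74 and 1.75 above torpor, and for each of the 5 the adjusted p was 0.142. The winter active values of HYCC2, FUT11, HIPK3 and CREBRF were 0.31 to 0.44 below arousal on the log2 scale (adjusted p = 0.825 to 0.839). Red cell genes were low in torpor too. ALAS2 stood at 32.6 and 33.7 in torpor, 0.0419 and 0.941 in arousal and 23.0 and 0.218 in the winter active state. AHSP stood at 65.4 and 23.3 in torpor and at 0.633 and 1.10 in arousal, a difference of -4.44 (adjusted p = 0.142), and HBM differed between arousal and torpor by -4.27 (adjusted p = 0.169). The 4 loci with locus numbers summed to 22234 and 31275 in torpor, 54.0 and 847 in arousal and 7006 and 152 in the winter active state.

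**Figure D5:**
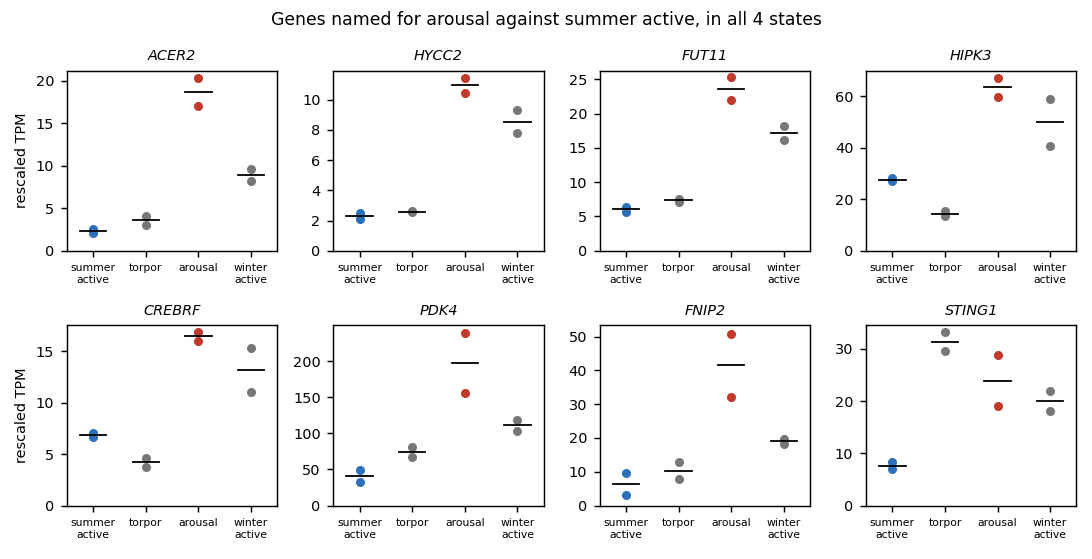
Rescaled TPM of 8 genes that rose in arousal against summer active spleen, in the 4 states (x axis, summer active, torpor, arousal and winter active), with 1 point a library and a line at the mean of 2. ACER2, HYCC2, FUT11, HIPK3 and CREBRF were taken for the smallest p against torpor, and PDK4, FNIP2 and STING1 were added as examples, STING1 being the one whose torpor values, 33.2 and 29.5, lie above its arousal values.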

How the data were processed

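Per the labels' protocols, total RNA of whole spleen was made into Illumina libraries. Tools listed in the submitters' processing notes are kallisto 0.46.2 and sleuth 0.30.0. The authors deposited a TPM signal, rescaled so that columns do not sum to 1000000, with 1 row a gene. How it was summed and rescaled, and on which transcriptome, was not given in the sources used here. A log-scale test planned for plain TPM was used unchanged. All 19652 gene names matched assembly mRhiFer1_v1.p, used for names and neighbours only, since the build behind the table is not named.

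Genes with an 8-library mean of 1 or more entered limma 3.58.1 (R 4.3.3) as log2(value + 1) (lmFit, contrasts.fit, eBayes with a trend), all 8 libraries in 1 fit, 4 residual and 3.29 prior degrees of freedom, two-sided, Benjamini-Hochberg adjusted p under 0.05. The script was tested on simulated data. No counting interval is given, as depth is unknown.

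Named genes are the 12 largest rises and falls with a symbol, no overlap and 5 or more as the mean of the higher state, up to 4 members called per list (2 by smallest p where none was), and the 5 smallest p against torpor among such genes; a few of these are not reported here. The 49 gene lists, and the comparison itself, were chosen with earlier results of these data known. The 4 linker and replication histone genes tested were too few for a list summary. When 1 library was left out, the lone replicate was assumed to vary like other states. Same-numbered libraries were not shown to be pairs (replicate deviations of arousal and summer active correlated at -0.144), so no replicate block was used for the values reported.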

Additional observations from a re-analysis of the deposited data

How the results depend on the processing

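The counts of changed, higher and lower genes were 748, 323 and 425. With no filter on low values they were 284, 70 and 214. With columns set to 1000000 they were 6131, 5868 and 263, with erythroid and other-organ genes left out of those totals 6282, 6018 and 264, and with genes over 10000 left out (an alternative added after the data were seen) 1235, 925 and 310. In a fit of the 4 libraries alone they were 27, 0 and 27, with 1679 genes higher at an unadjusted p under 0.05 by limma. Without single libraries they ranged from 25 to 677, from 1 to 221 and from 24 to 456. With a pseudocount of 0.1, a minimum mean of 5, rescaling by median of ratios, quantiles made equal and robust eBayes the changed genes numbered 774, 795, 772, 618 and 799, each within 1.5 times of 748. With the replicate number as a block they were 842, 384 and 458. The deviations of same-numbered libraries correlated between -0.191 and 0.322 over the 6 pairs of states, so the numbers are not shown to pair bats. Crossing the numbers in arousal, added after the data were seen, gave 679, 325 and 354. The sign turned for the proteasome gene PSMB6, from -0.67 to 0.10 with columns set to 1000000 and 0.12 with erythroid and other-organ genes left out of that total, and for the stomach gene TFF2, at 1.39 with all libraries and -0.24 to 3.01 without single ones, the lowest without arousal 2. The cause of these changes was not tested. With 2 libraries a state and no read counts, small differences and values near 0 cannot be resolved, and 312 of the 748 calls were made in none of the 8 fits without a library.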

Other observations

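Several groups not described above held no member past the threshold, given here as values. Of 32 autophagy and lysosome genes (median 0.09), ATG14, which starts autophagosome formation, stood at 14.1 and 11 in arousal, against 6.06 and 5.94 in summer (0.94, limma adjusted p = 0.0636). LAMP2, a lysosome membrane protein, stood at 67.9 and 85.1 in arousal, against 42.6 and 43.2 in summer (0.81, adjusted p = 0.0647). Both genes were higher in both arousal libraries. Of 33 Mediator subunits, which link transcription factors to RNA polymerase II, MED13L differed by 1.00 and MED23 by 0.74 (adjusted p = 0.0554 and 0.11), while the list median was 0.08 and -0.05 under quantile normalization.

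Among 20 cholesterol synthesis genes (median 0.30), INSIG1 and STARD4 differed by 0.97 and 0.88 (adjusted p = 0.0997 and 0.145). Among 27 collagen and stroma genes (median 0.30), COL1A1 stood at 7.79 and 3.53 in arousal, against 1.66 and 1.68 in summer (1.24, adjusted p = 0.0769), and the smooth muscle actin gene ACTA2 differed by 1.17 (adjusted p = 0.0836). Without summer active 2 the collagen median was -0.10 and the autophagy median -0.07. Among 33 proteasome genes (median -0.14, turning to 0.63 with columns set to 1000000), PSMD12 and PSMB6 differed by 0.80 and -0.67 (adjusted p = 0.0709 and 0.0816). Autophagy, Mediator, cholesterol, collagen and proteasome lists had 9, 4, 3, 6 and 5 members at an unadjusted p under 0.05 by limma. Of all 13542 genes, 3920 were at that level. TNNT1, a troponin, fell, at 1.08 and 1.34 in arousal, against 5.56 and 10.02 in summer (-1.95, adjusted p = 0.0424). It was the single call of 8 muscle genes (12.5%, against 3.14% of all genes lower). The muscle median was -0.18 and turned to 0.51 with columns set to 1000000. That list summed to 115 and 118 in arousal, against 165 and 110 in summer. TFF2 and ATP4A, stomach genes, differed by 1.39 and -0.12 (adjusted p = 0.68 and 0.953). ACER2 was the single call of 23 sphingosine phosphate and ceramide genes (4.35%, against 2.39% of all genes higher, median 0.16).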
